A study of Danio rerio with 6 samples.

Results

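DEAD and DEAH box RNA helicases were examined in the regenerating caudal fin of adult zebrafish. Members were all genes of the deposited table whose symbol begins with ddx or dhx followed by a digit. This gave 49 of 19822 genes, 33 named ddx and 16 named dhx. The fins came from wild-type AB fish of 3 to 12 months, both sexes in equal numbers, and were taken at 24 h of regeneration from fish then kept at 33 °C. The treated group was injected intraperitoneally with Galloflavin, an inhibitor of lactate dehydrogenase, at 0.12 mg per g in DMSO, and the control group with DMSO alone. The times of injection are not given in the labels. Each group had 3 libraries, each made from a pool of 10 fins that included 1 ray segment of the stump. Each of the 3 replicates of the titles (B1 to B3), called batches here, contributed 1 library per group.

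These helicases are named after the letters of the amino acid motif in their ATP-binding core. DEAD box proteins open short RNA duplexes locally and release RNA after ATP hydrolysis, whereas DEAH box proteins move along a single strand and are often switched on by G-patch partner proteins. They act in every step of RNA life, from ribosome assembly in the nucleolus and splicing to nuclear export, translation and decay. A growing tissue such as the fin regenerate depends on ribosome production and mRNA processing, in which many of the members take part.

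Reads per library, recovered from the table, ranged from 17712157 to 29596335, and the B3 pair was the shallowest. The values are normalised counts, in which 1 read was worth 0.0338 to 0.0543, and the gene-wise tests used log2(normalised count + 1). Markers of fin skin were abundant: 12 basal epidermis genes summed to normalised counts of 59932 to 75267 in Galloflavin libraries and 57094 to 76125 in DMSO libraries. Most of that sum was krt5, and the genes of the list taken singly had a median log2 fold change of 0.32, with 10 of 12 above 0 and 4 higher at an unadjusted p under 0.05. The part of epidermis in the values of the members was not tested. Of 13 muscle genes, 3 were in the table and their sum was 1.85 to 3.53 in Galloflavin libraries and 1.86 to 2.33 in DMSO libraries. Galloflavin B2 stood apart in glycolysis and hypoxia genes, with a summed normalised count of 12128 over 34 genes. That sum was 5202 and 3243 in Galloflavin B1 and B3, and 3105 to 4333 in the DMSO libraries. Values without Galloflavin B2 are given beside the groups and genes named for it. In RNA from pooled fin tissue of mixed cell types, fewer cells of a type and less RNA per cell cannot be told apart.

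No helicase gene passed the test between Galloflavin and DMSO fins in limma, and neither did any other gene. Of the 49 members, 47 had a mean normalised count of at least 1 and were tested. The lowest adjusted p among them in limma was 0.671, for dhx29, and 0 (0%) of 15806 genes tested passed the 0.05 threshold. edgeR on recovered reads also called 0 genes, whereas DESeq2 called 0.525% of all genes, or 0.943% with batch as a block, and 0 members in either fit. At an unadjusted p under 0.05, 1 member was lower, dhx29, and 0 were higher, against 3.03% of all genes tested that were lower and 4.18% that were higher. With batch as a block, dhx29 and dhx58 were lower and ddx21 was higher at that level, against 4.11% and 5.90% of all genes. Fitted log2 fold changes ran from -0.41 for dhx58 to 0.30 for ddx21. The 95% interval of the log2 fold change lay within 0.5 of 0 for 30 of the 47, and 49.8% of all genes tested met the same condition.

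Most members lay slightly below 0. The fitted log2 fold change was negative for 37 of 47 members (78.7%), against 50.9% of all genes tested. For ddx genes it was negative in 24 of 32 with a median of -0.07, and for dhx genes in 13 of 15 with a median of -0.17, while the median over all genes was -0.004. Without Galloflavin B2 the counts were 17 of 32 ddx genes (median -0.01) and 13 of 15 dhx genes (median -0.13), against 51.2% of all genes. The share of ddx genes below 0 was thus near the background without that library. The batch pair medians of the ddx genes were -0.08 in B1, -0.17 in B2 and 0.08 in B3, whereas those of the dhx genes were -0.11, -0.13 and -0.09. No test of the difference between the families was made.

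**Figure D1:**
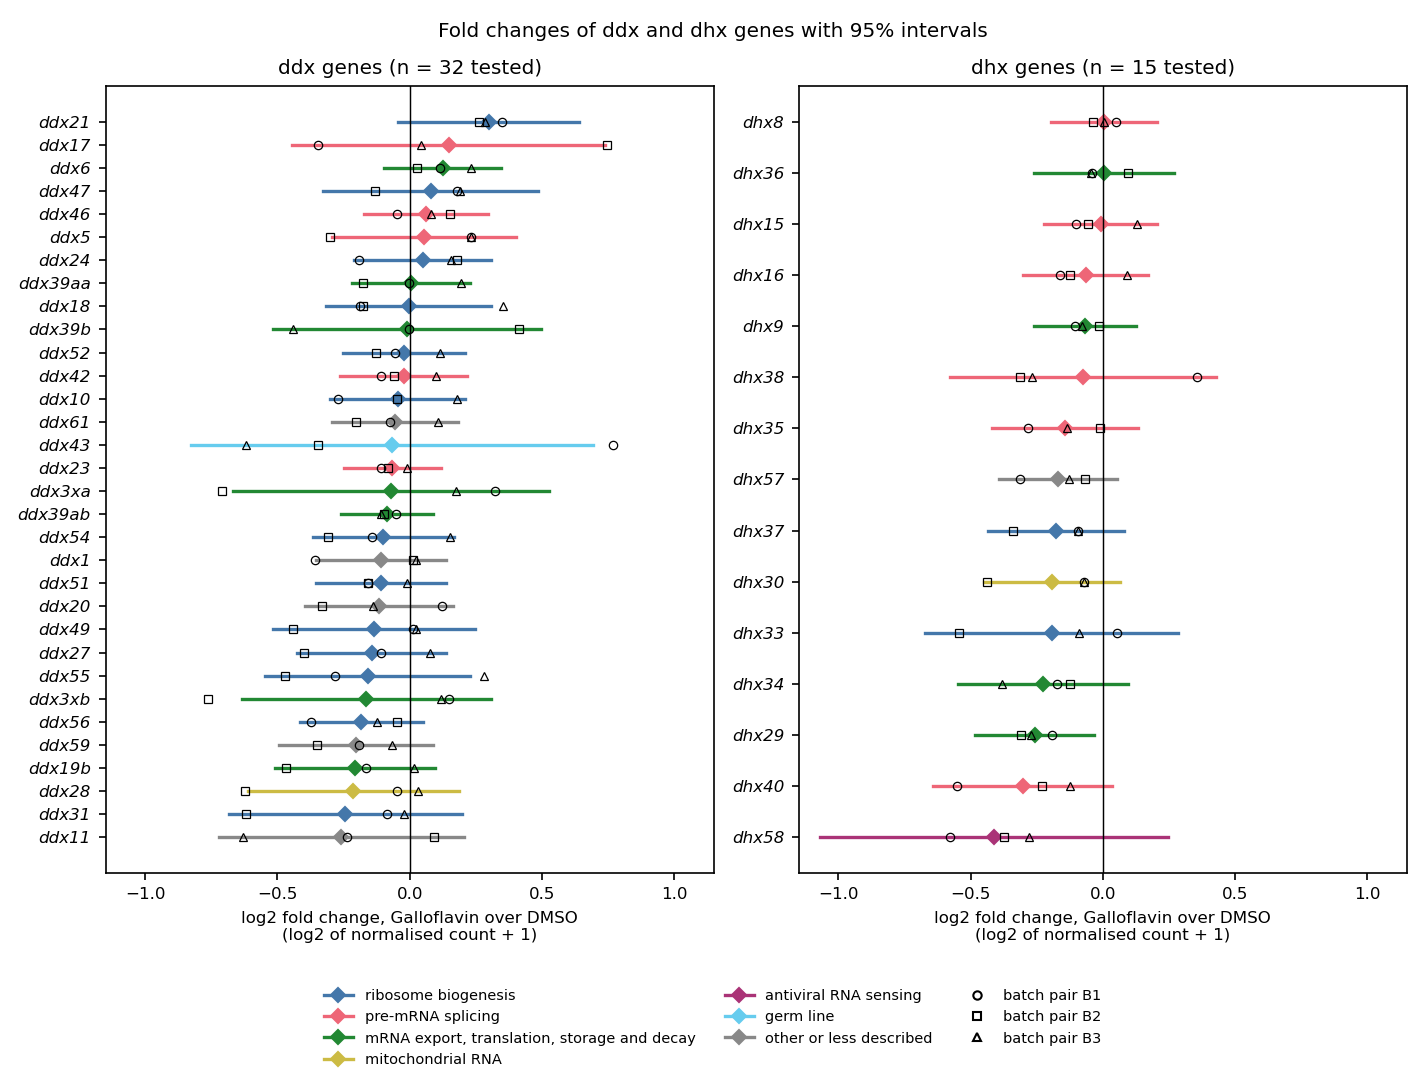
Fitted log2 fold changes (diamonds) of 32 ddx genes, left, and 15 dhx genes, right, with 95% intervals as bars coloured by role; open symbols give the difference within each batch pair. The interval of dhx29 alone leaves out 0, and all dhx genes lie between -0.41 and 0.004.

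Genes of ribosome biogenesis made up the largest role group, with 15 members, all tested. They act in the nucleolus on precursors of ribosomal RNA. Of these, 12 had a negative log2 fold change and 3 a positive one, with a median of -0.11 and batch pair medians of -0.11, -0.18 and 0.11. Galloflavin B2 held the lowest value of 10 of the 15. Without it 9 of 15 were below 0 and the median was -0.02.

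ddx21 (ENSDARG00000063626), a nucleolar helicase that acts in transcription and processing of ribosomal RNA, had the highest fold change of all members. Its normalised counts were 210 (B1), 180 (B2) and 243 (B3) in Galloflavin libraries, and 165, 150 and 199 in DMSO libraries. The Galloflavin library was the higher one in each batch, but the groups overlapped, since DMSO B3 lay above Galloflavin B2. Without Galloflavin B2 the groups did not overlap, and the log2 fold change of ddx21 was 0.41. Leaving out any other library gave values from 0.19 (without Galloflavin B3) to 0.41 (without DMSO B3). Leaving out a batch gave 0.27 (B1), 0.32 (B2) and 0.31 (B3). The means were 211 ± 31.0 in Galloflavin fins and 171 ± 24.9 in DMSO fins (SD, n = 3 each), which gives 0.30 ± 0.15 on the log2 scale (SE; adjusted p = 0.707, limma). With batch as a block its unadjusted p was 0.00885 in the limma fit and its adjusted p 0.366, and over all alternatives the adjusted p ranged from 0.366 to 0.9998.

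ddx54, another nucleolar helicase, had 64.3, 55.5 and 72.2 normalised counts in Galloflavin libraries B1 to B3, against 71.0, 69.0 and 64.9 in DMSO libraries (log2 fold change -0.10 ± 0.11, or -0.0018 without Galloflavin B2). Its Galloflavin value was the lower one in B1 and B2 and the higher one in B3. ddx24 had 65.0, 77.8 and 82.4 in Galloflavin libraries and 74.4, 68.5 and 73.8 in DMSO libraries (0.05 ± 0.11), lower in the Galloflavin library of B1 and higher in those of B2 and B3. For ddx31 the Galloflavin values were 10.4, 6.35 and 10.4 and the DMSO values 11.1, 10.3 and 10.5, a log2 fold change of -0.24 ± 0.19. Galloflavin B2 alone of the 6 libraries was low for ddx31, and without Galloflavin B2 its log2 fold change was -0.03. dhx33, which acts in ribosomal RNA transcription, stood at 16.6, 10.5 and 10.9 in Galloflavin libraries and 15.96, 15.8 and 11.6 in DMSO libraries (-0.19 ± 0.20, or -0.09 without Galloflavin B2). The other 10 members of the group had log2 fold changes from -0.18 (ddx56 and dhx37) to 0.08 (ddx47).

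Other nucleolar genes, which build ribosomes but are no helicases, were listed beside them. Of 41 tested, 39 had a negative log2 fold change, with a median of -0.14 and batch pair medians of -0.17, -0.35 and 0.04, and Galloflavin B2 held the lowest value of 34. Without Galloflavin B2, 30 of 41 were below 0 and the median was -0.04. None passed at the adjusted p, and 2 of 41 were lower at an unadjusted p under 0.05, a share near the 3.03% of all genes. The 2 were imp3, a subunit of the small subunit processome (log2 fold change -0.22 ± 0.09, adjusted p = 0.690 by limma), and mphosph10, another (-0.28 ± 0.12, adjusted p = 0.690).

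**Figure D2:**
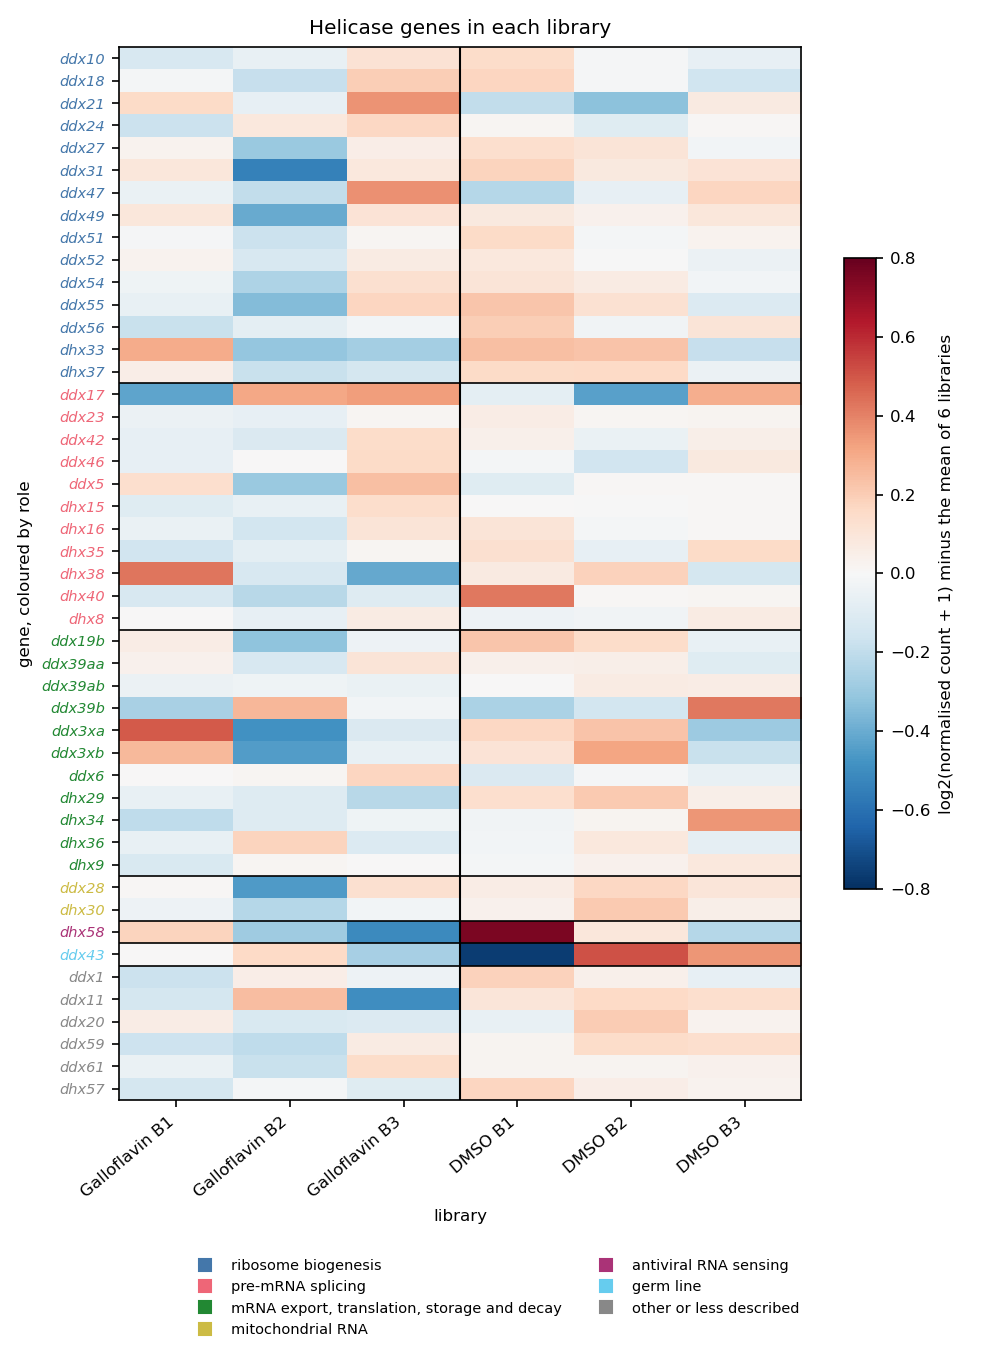
Each row is 1 of the 47 tested helicase genes and each column 1 library; colour gives log2(normalised count + 1) minus the gene's mean over the 6 libraries, and lines part the roles. Galloflavin B2 holds the lowest value of 25 genes, among them ddx3xa and ddx3xb.

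The median of the splicing helicases was the nearest to 0 of the 3 large role groups. They drive the rearrangements of the spliceosome, and ddx23 and ddx46 act early in its assembly while dhx38 and dhx8 act at the second step of splicing and at mRNA release, and dhx15 at disassembly. Of 11 members, 7 had a negative log2 fold change and 4 a positive one, with a median of -0.02. The batch pair medians were -0.11, -0.06 and 0.04. Galloflavin B2 held the lowest value of 6 of the 11. Without it the log2 fold changes of dhx15, ddx46, ddx5, ddx23 and dhx40 were 0.02, 0.08, 0.21, -0.05 and -0.27. dhx15 had 168, 173 and 198 normalised counts in Galloflavin libraries B1 to B3 and 180, 180 and 181 in DMSO libraries. Its log2 fold change of -0.01 had a 95% interval of -0.22 to 0.21. ddx46 had 160, 168 and 187 in Galloflavin libraries, against 166, 151 and 177 in DMSO libraries (0.06 ± 0.10).

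The groups were narrow for ddx23, at 65.2, 64.5 and 68.2 in Galloflavin libraries and 70.3, 68.3 and 68.6 in DMSO libraries. All Galloflavin values of ddx23 lay below all DMSO values, but the log2 fold change was -0.07 ± 0.08 (limma adjusted p = 0.892). dhx40, listed here with the splicing genes, had 10.3, 9.60 and 10.5 in Galloflavin libraries and 15.6, 11.4 and 11.5 in DMSO libraries. Its groups did not overlap either, with DMSO B1 the highest, and its log2 fold change was -0.30 ± 0.14 (limma adjusted p = 0.692; unadjusted p = 0.0725). Without DMSO B1 it was -0.17.

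ddx5 and its relative ddx17, splicing and transcription cofactors, both varied between libraries. ddx5 had 1007, 749 and 1087 normalised counts in Galloflavin libraries B1 to B3, and 857, 923 and 926 in DMSO libraries. The lowest and the highest value were both in Galloflavin libraries, and the log2 fold change was 0.05 ± 0.15, or 0.21 without Galloflavin B2. ddx17, chosen after its values were seen, had 94.5, 158 and 161 in Galloflavin libraries and 121, 93.6 and 156 in DMSO libraries (0.15 ± 0.25). Within Galloflavin B2, ddx5 was at its lowest value while ddx17 was near its highest.

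Of 26 spliceosome core genes without helicases, 16 had a negative and 10 a positive log2 fold change, with a median of -0.03 and 0 at an unadjusted p under 0.05. The lowest p belonged to prpf3 (-0.14 ± 0.09), prpf19 (-0.13 ± 0.09) and snrpc (-0.17 ± 0.12), with limma adjusted p = 0.761, 0.781 and 0.803. G-patch proteins, some of which activate DEAH helicases, had a median of 0.03 over 18 tested genes, with 7 below 0. Among these the lowest p belonged to gpkow (-0.17 ± 0.10), aggf1 (0.38 ± 0.30) and rbm10 (-0.20 ± 0.17), and 0 passed at an unadjusted p under 0.05.

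The helicases of mRNA export, translation, storage and decay held dhx29, the member with the lowest p without a batch block; with the block ddx21 and dhx58 had lower ones. dhx29 (ENSDARG00000040326) binds the small ribosomal subunit and helps initiation on structured mRNAs. Its normalised counts were 30.4 (B1), 29.4 (B2) and 27.0 (B3) in Galloflavin libraries, against 34.8, 36.7 and 32.8 in DMSO libraries. All Galloflavin values lay below all DMSO values. The means were 28.9 ± 1.75 in Galloflavin fins and 34.8 ± 1.96 in DMSO fins (SD, n = 3 each), a log2 fold change of -0.26 ± 0.10 with a 95% interval of -0.48 to -0.03. The unadjusted p was 0.0303 and the adjusted p 0.671 in limma (0.448 to 0.9998 over all alternatives), and the smallest p that an exact two-sided permutation test of 3 against 3 libraries can give is 0.1.

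The translation helicase ddx3x has 2 copies in the zebrafish. ddx3xb had 642, 394 and 514 normalised counts in Galloflavin libraries B1 to B3, against 579, 668 and 473 in DMSO libraries. ddx3xa had 223, 113 and 146 in Galloflavin libraries and 178, 185 and 129 in DMSO libraries. In both genes the Galloflavin library was higher in B1 and B3 and lower in B2, where the differences were -0.76 and -0.71 on the log2 scale. The log2 fold changes of -0.16 ± 0.20 and -0.07 ± 0.25 had 95% intervals of -0.64 to 0.31 and -0.67 to 0.53. Without Galloflavin B2 these fold changes were 0.02 for ddx3xb and 0.15 for ddx3xa. Without both libraries of batch B2 they were 0.13 and 0.25. How reads of similar copies were assigned is not stated, so that the values of ddx3xa and ddx3xb, of ddx39aa and ddx39ab, of ddx19a and ddx19b, and of ddx6 and ddx61, are uncertain to that extent.

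ddx6, a helicase of processing bodies that acts in mRNA storage and decay, was the only member with all Galloflavin values above all DMSO values. It had 30.4, 30.7 and 34.3 normalised counts in Galloflavin libraries and 28.0, 30.1 and 29.1 in DMSO libraries (log2 fold change 0.12 ± 0.09, limma adjusted p = 0.809). Its zebrafish relative ddx61 had 142, 129 and 162 in Galloflavin libraries and 149, 149 and 150 in DMSO libraries, with overlapping groups (-0.06 ± 0.10, or 0.02 without Galloflavin B2). The export helicase ddx39ab was the steadiest member, at 232, 234 and 231 in Galloflavin libraries and 241, 250 and 249 in DMSO libraries. Its groups did not overlap, yet the log2 fold change was -0.09 ± 0.07 (limma adjusted p = 0.836).

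ddx19b, which remodels mRNA at the nuclear pore, had 101, 77.3 and 94.1 normalised counts in Galloflavin libraries, against 113, 107 and 92.9 in DMSO libraries (-0.21 ± 0.13, or -0.10 without Galloflavin B2). Its 2 lowest values were not in 1 group, since DMSO B3 followed Galloflavin B2. dhx34, a factor of nonsense-mediated decay, had 10.5, 11.2 and 11.9 in Galloflavin libraries and 11.9, 12.4 and 15.8 in DMSO libraries. The groups of dhx34 did not overlap by a small margin, and the log2 fold change was -0.23 ± 0.14 (limma adjusted p = 0.755), or -0.11 without DMSO B3. The other tested members of this role, ddx39aa, ddx39b, dhx9 and dhx36, had log2 fold changes from -0.07 to 0.005.

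Over all roles, groups did not overlap with the Galloflavin libraries lower for 7 of 47 members, and 6.47% of all genes tested met this. The 7 were ddx23 and ddx39ab and 5 of the 15 dhx genes, dhx29, dhx30, dhx34, dhx40 and dhx57. Without Galloflavin B2, 8 members met it, the same 5 dhx genes among them, against 10.2% of all genes. Groups did not overlap with the Galloflavin libraries higher for 1 member, against 6.97% of all genes. Without Galloflavin B2 this count was 4, with ddx5, ddx6, ddx21 and ddx49, against 11.8%. With fewer libraries such counts can only stay or rise, for members as for all genes. Leaving out any of the other 5 libraries likewise raised both backgrounds. The ddx and dhx genes with all Galloflavin values lower then numbered 3 and 8 without Galloflavin B1 (all genes 12.8%), and 8 and 8 without Galloflavin B3 (13.1%). They numbered 4 and 6 without DMSO B1 (9.69%), 5 and 6 without DMSO B2 (8.97%), and 4 and 6 without DMSO B3 (15.1%). With all Galloflavin values higher there were 3 members without Galloflavin B1 (12.3%) and 2 without DMSO B3 (15.0%), and 1 without Galloflavin B3 (14.1%), DMSO B1 (10.1%) or DMSO B2 (9.43%). The Galloflavin library was the lower one in each of the 3 batches for 15 members, 6 ddx and 9 dhx, against 16.4% of all genes, and the higher one in each batch for 2, ddx21 and ddx6, against 17.0%.

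**Figure D3:**
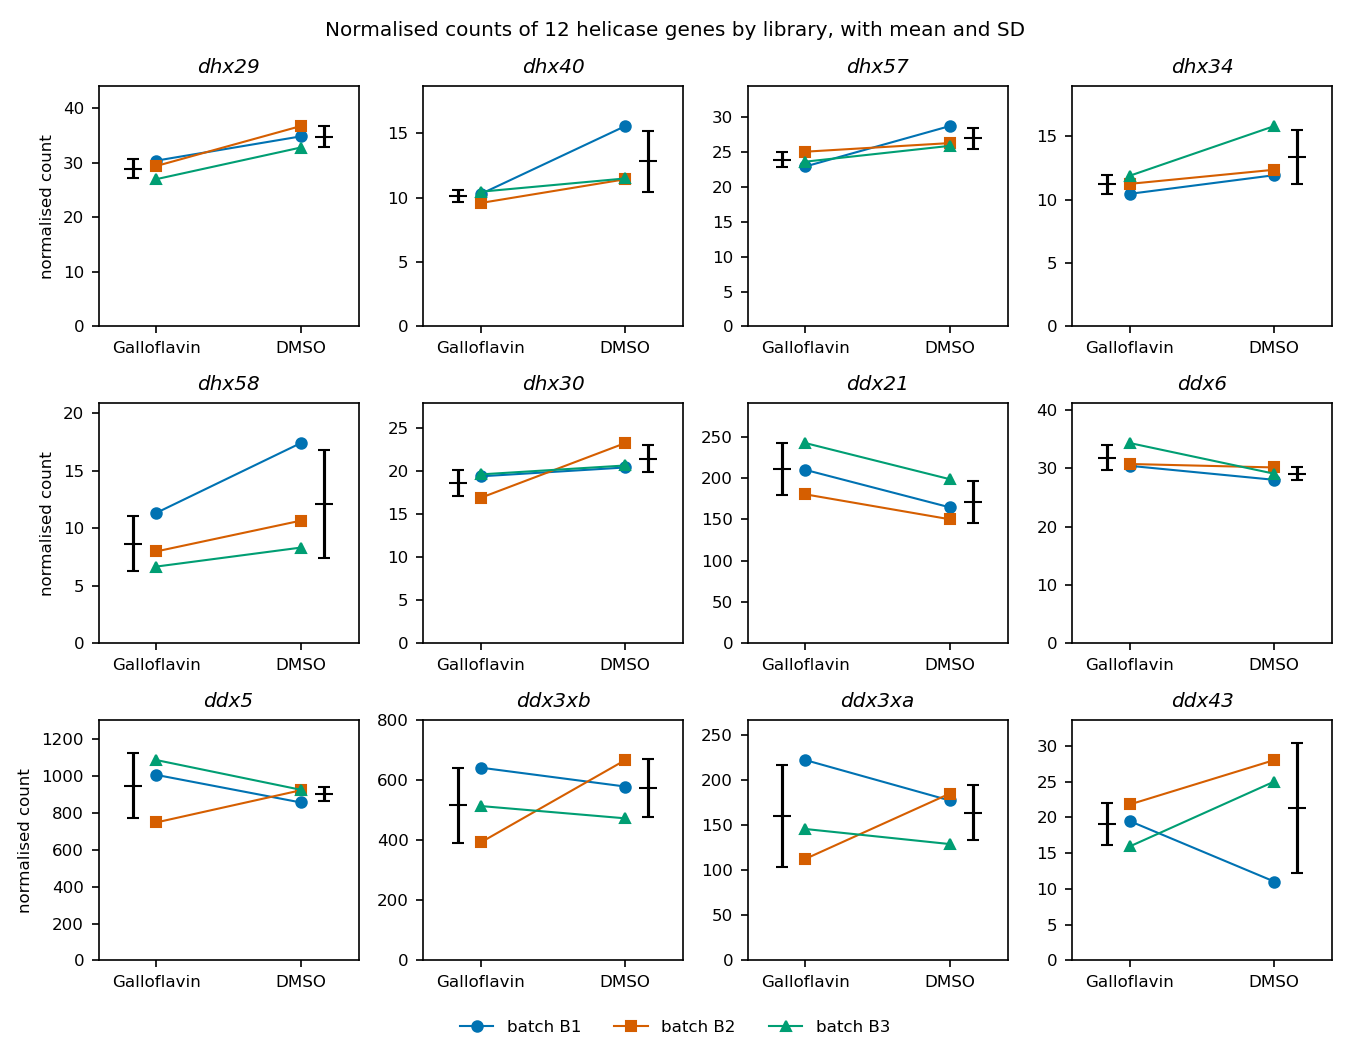
Normalised counts of 12 helicase genes in Galloflavin (left) and DMSO (right) libraries, with lines joining the libraries of a batch and black marks for the mean and SD (n = 3). The lines of dhx29, dhx40, dhx57, dhx34, dhx58 and dhx30 are lower at the Galloflavin end in all batches, those of ddx21 and ddx6 higher. For ddx5, ddx3xb, ddx3xa and ddx43 the direction differs between batches.

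Both members that act on mitochondrial RNA had negative log2 fold changes. dhx30, which takes part in assembly of the mitochondrial ribosome, had 19.4, 16.9 and 19.6 normalised counts in Galloflavin libraries B1 to B3 and 20.4, 23.2 and 20.6 in DMSO libraries (-0.19 ± 0.11, limma adjusted p = 0.737). ddx28, which acts on the same ribosome, had 8.76, 6.07 and 9.61 in Galloflavin libraries and 9.09, 9.88 and 9.38 in DMSO libraries (-0.21 ± 0.17). In both the lowest value was in Galloflavin B2 and the highest in DMSO B2. Without Galloflavin B2 the log2 fold changes were -0.13 for dhx30 and -0.04 for ddx28, and without both libraries of batch B2 they were -0.07 and -0.01.

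dhx58 encodes a regulator of the RIG-I-like receptors, which sense viral RNA. Its normalised counts were 11.3 (B1), 7.99 (B2) and 6.67 (B3) in Galloflavin libraries, against 17.4, 10.7 and 8.32 in DMSO libraries. Both groups had their highest value in B1 and their lowest in B3, and the Galloflavin library was the lower one in each batch, by 0.58, 0.38 and 0.28 on the log2 scale. The log2 fold change of -0.41 ± 0.28 had limma adjusted p = 0.787. With batch as a block the unadjusted p was 0.0173 and the adjusted p 0.408, in a range of 0.408 to 0.9998 over all alternatives. Without DMSO B1 the log2 fold change was -0.14, and without DMSO B3 it was -0.63. Of 13 neutrophil markers in the table, 12 had positive log2 fold changes, with sums of 366 to 585 normalised counts in Galloflavin libraries and 229 to 531 in DMSO libraries. In that sum mmp9 alone held 178 to 374 in Galloflavin libraries and 104 to 332 in DMSO libraries. The batch pair medians of the neutrophil markers were 0.59 in B1, 0.48 in B2 and -0.05 in B3. At an unadjusted p under 0.05 in limma, 4 of them were higher and 0 lower, against 4.18% and 3.03% of all genes. Of 16 macrophage markers 8 had positive log2 fold changes, and the sum of the 16 was 4845 to 6148 in Galloflavin libraries and 3718 to 4402 in DMSO libraries. Most of the macrophage sum was apoeb, with 3674 to 4865 and 2326 to 2829. Taken singly, the macrophage genes had a median log2 fold change of -0.004, with 3 higher and 2 lower at an unadjusted p under 0.05 in limma. The part of leukocytes in the values of dhx58 was not tested.

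ddx43, a germ line helicase in mammals, had the widest spread within groups. It had 19.5, 21.8 and 15.95 normalised counts in Galloflavin libraries and 11.03, 28.0 and 25.0 in DMSO libraries. The DMSO values spanned the Galloflavin values, and the log2 fold change of -0.07 had a 95% interval of -0.83 to 0.69. Without DMSO B1 it was -0.46.

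The remaining 6 tested members, among them ddx61 above, had log2 fold changes from -0.26 to -0.06. dhx57 had 22.9, 25.0 and 23.6 normalised counts in Galloflavin libraries, against 28.7, 26.3 and 25.9 in DMSO libraries, with groups that did not overlap (-0.17 ± 0.10, limma adjusted p = 0.737). ddx59 had 8.22, 7.99 and 9.82 in Galloflavin libraries and 9.52, 10.5 and 10.3 in DMSO libraries (-0.20 ± 0.12). Its groups overlapped only through Galloflavin B3. ddx1, a subunit of the tRNA ligase complex, had 55.01, 64.4 and 60.4 in Galloflavin libraries and 70.8, 63.9 and 59.4 in DMSO libraries (-0.11 ± 0.10), with its difference in B1.

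ddx11, chosen after its values were seen, is a DNA helicase of sister chromatid cohesion that shares the family's name. Its normalised counts were 4.17, 5.76 and 3.04 in Galloflavin libraries and 5.09, 5.35 and 5.25 in DMSO libraries, with a log2 fold change of -0.26 ± 0.20. Among 33 DNA replication genes 32 had a negative log2 fold change, with a median of -0.22, and all 26 mitosis genes did, with a median of -0.25. At an unadjusted p under 0.05 in limma, 11 replication and 4 mitosis genes were lower, against 3.03% of all genes, and 0 passed at the adjusted p. The Galloflavin library was the lower one in each batch for 27 and 24 of them, against 16.4% of all genes. The part of proliferation in the values of the members was not tested.

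The members below the mean of 1, and so not tested in the main fit, were ddx19a and dhx32a. The alternative without that filter included both and called 0 members. ddx19a had 0.810, 0.431 and 0.380 normalised counts in Galloflavin libraries, against 0.699, 1.117 and 1.06 in DMSO libraries. dhx32a had 2, 16 and 2 reads in Galloflavin libraries and 1, 2 and 4 reads in DMSO libraries, so that Galloflavin B2 held most of its reads.

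The sum of the ddx genes was lowest in Galloflavin B2. Their summed normalised counts were 3631, 2990 and 3728 in Galloflavin libraries B1 to B3, and 3451, 3545 and 3401 in DMSO libraries. The abundant ddx5 and ddx3xb, both lowest in Galloflavin B2, weighed most in this sum. Counted gene by gene, Galloflavin B2 held the lowest value of 19 of 32 ddx genes. The sums of the dhx genes were 635, 627 and 655 in Galloflavin libraries and 682, 678 and 668 in DMSO libraries, with all Galloflavin values below all DMSO values. In this sum dhx15 and dhx9 weighed most, with log2 fold changes of -0.01 and -0.07 and groups that overlapped. No share of such sums over other gene sets was taken. Galloflavin B2 held the lowest value of 25 of 47 members, against 18.6% of all genes tested, and DMSO B3 of 0, against 17.2%. The highest value of 15 members, 13 of them ddx genes, was in Galloflavin B3, against 19.0% of all genes. DMSO B1 held the highest value of nearly as many, 14 members with 10 ddx genes among them. Its share of all genes is not given here. The part of the glycolysis and hypoxia state of Galloflavin B2 in these values was not tested.

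Spread between libraries of 1 group was measured as well. For the 46 members with a mean of at least 5, the median SD within groups was 0.12 on the log2 scale, against 0.16 for the 11757 genes with such a mean, and 28 of the 46 lay below that median of all genes. It was smallest for ddx39ab (0.0235) and largest for ddx43 (0.51), followed by dhx58 (0.43), ddx3xa (0.40) and ddx17 (0.40).

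RNA helicases with other names had a median log2 fold change of -0.05 over 21 tested genes, with 13 below 0 and 0 at an unadjusted p under 0.05. Without Galloflavin B2, 15 of the 21 were below 0 and the median was -0.04. The lowest p belonged to skiv2l, the helicase of the Ski complex (-0.22 ± 0.11, limma adjusted p = 0.718), mtrex, its nuclear counterpart in the exosome pathway (-0.15 ± 0.10, adjusted p = 0.774), and the mitochondrial helicase supv3l1 (-0.25 ± 0.17, adjusted p = 0.790). Of 23 tested MIF4G proteins and other cofactors, 15 were below 0, with a median of -0.04 and 0 at an unadjusted p under 0.05, and without Galloflavin B2 11 were below 0 with a median of 0.01. Here the exon junction factor rbm8a stood at -0.23 ± 0.10, eif4ba at -0.22 ± 0.10 and eif4g3b at -0.17 ± 0.09 (limma adjusted p = 0.690, 0.693 and 0.728).

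**Figure D4:**
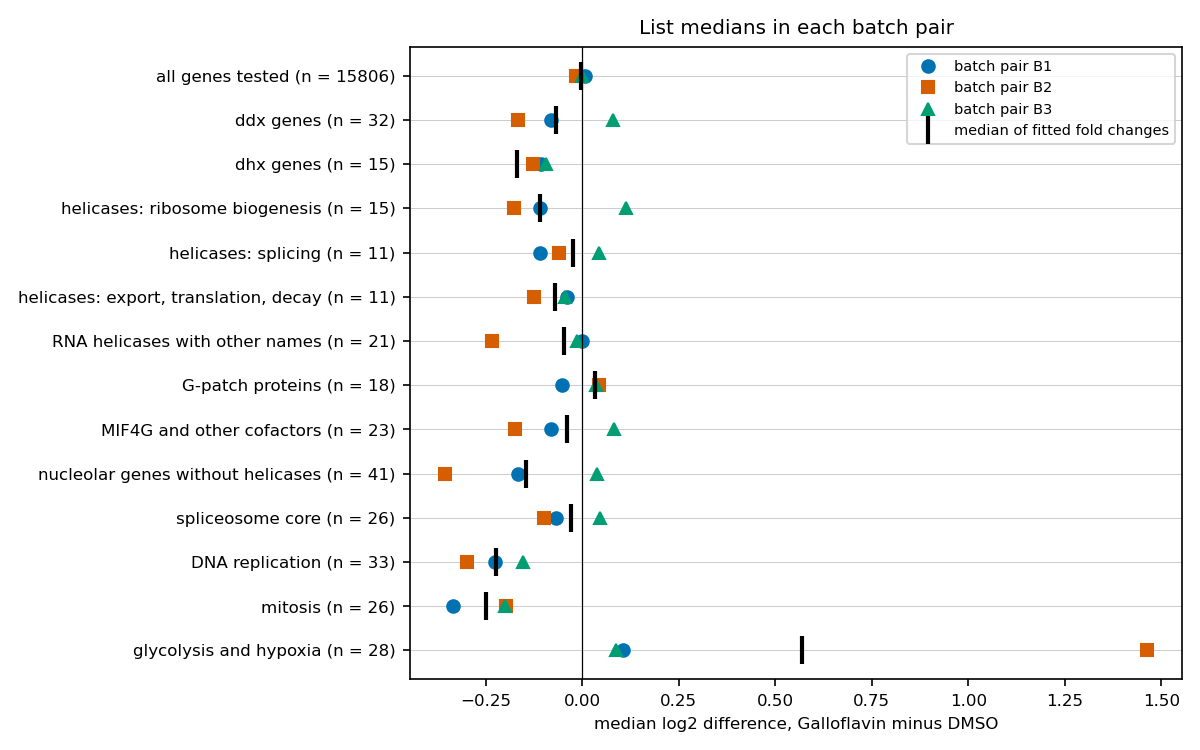
Median log2 difference, Galloflavin minus DMSO, in each batch pair (symbols), and median of the fitted log2 fold changes (black bars), for helicase groups, their partner lists and reference lists. The dhx medians are between -0.13 and -0.09 in the batch pairs, the ddx medians have both signs, and glycolysis and hypoxia genes reach 1.46 in B2.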

How the data were processed

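Libraries were made with a stranded mRNA kit from pools of 10 fins, per the labels' protocols. The submitters' processing notes name STAR 2.7.10a and GRCz11. Counter, annotation and normalization method are not stated. The deposited signal is a normalised count per gene in each library, as the authors scaled it. Dividing each column by its smallest value above 0 returned whole reads for 100% of values (within 0.01). Tested members had 56 to 27282 reads per library. Whether strand was used is unknown, which leaves overlapping genes uncertain.

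Members were taken by the symbols of the deposited table; 1 further identifier, named ddx41 only by a table of gene names, is no member. Lists also used that table for identifiers without a symbol. The members and lists were chosen with earlier results of these data known. Genes with a mean of at least 1 (15806) entered limma 3.58.1 (R 4.3.3) on log2(normalised count + 1), two-sided, with a mean trend and Benjamini-Hochberg adjustment over all of them. Alternatives used edgeR 4.0.16 and DESeq2 1.42.0 on recovered reads. Pools are separate samples per the labels.

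Members were given with values per library if they had an unadjusted p under 0.05, were among the 10 with the largest absolute log2 fold change and a mean of at least 5, had 1 of the 3 highest means in their role, or had groups that did not overlap; 25 met this. Libraries were paired by the B1 to B3 of their titles, which call these replicates and do not say whether the libraries of a pair were handled together. Deviations from the group means correlated over genes at 0.10 (B1), 0.08 (B2) and 0.49 (B3) within batches, and at -0.39 to 0.38 between batches. No genome of the alignment build and no sequence table was used here, so no coordinates or sequences are given. Intervals and floors of 3 reads cover no more than the spread of these libraries or counting error.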

Additional observations from a re-analysis of the deposited data

How the results depend on the processing

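Over 21 alternatives, 0 ddx and 0 dhx genes passed at an adjusted p of 0.05, with limma, edgeR or DESeq2, with the replicate block or without it. Over all genes limma called 0 and edgeR 0, with 660 genes higher and 479 lower at an unadjusted p under 0.05 in limma, while DESeq2 called 83, or 149 with the replicate block. Without batch B2 limma called 1 gene, mhc2dab, named after its values were seen. The replicate block left the medians at -0.07 for ddx and -0.17 for dhx genes. That was fixed beforehand in limma, since each batch held 1 library per group. The block changed no call of a member at the adjusted p. The ddx median ranged from -0.10 to -0.01 when each library was left out, the value nearest 0 without Galloflavin B2, and the dhx median from -0.18 to -0.12. The ddx median was -0.11 with quantile normalization, -0.006 without batch B2 and -0.12 without batch B3. The number of genes below 0 also moved with the scaling. With quantile normalization 28 ddx and 15 dhx genes were below 0, against 24 and 13 as reported. The dhx median was -0.15 with a pseudocount of 5, -0.19 with upper-quartile scaling, -0.0928 without batch B2 and -0.15 without batch B3. Of 525 values of the 25 members named by rule, 508 lay within 1 SE of the reported value, 17 moved further and 0 were called. In limma the block and the filters on the mean cannot change the fold change of these members. Their values under those settings were thus within 1 SE beforehand. The sign changed at least once for 10 of the 25, ddx1, ddx3xa, ddx3xb, ddx5, ddx24, ddx43, ddx46, ddx54, ddx61 and dhx15. dhx29 was not at an unadjusted p under 0.05 without DMSO B1, DMSO B2 or Galloflavin B3, without any 1 batch, or in DESeq2 with the block. Other members reached that level in limma only with the block or when libraries were left out. With the block dhx58 was lower, against 4.11% of all genes. ddx43 was lower without DMSO B1, and 1 ddx gene was lower without Galloflavin B2. ddx21 was higher without DMSO B3, Galloflavin B2 or batch B3, and also with the block. The overlap of the groups without each library was added after seeing the data. Depth limits ddx19a and dhx32a.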
